A study of Homo sapiens with 6 samples.

Results

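Heparan sulfate is a sulfated sugar chain carried by a small set of core proteins, and 40 genes that build, carry, sulfate or trim it, or that sulfate other sugar chains, were followed among the 60107 gene IDs of the count table. The list holds 4 syndecans, 6 glypicans, 5 chain polymerases and initiators, 4 N-deacetylase/N-sulfotransferases, GLCE and HS2ST1, 3 6-O-sulfotransferases, 6 3-O-sulfotransferases, 2 sulfatases and 8 CHST enzymes. All 40 were matched by Ensembl ID and all 40 passed the filter on low counts, by which 22613 genes were kept. The list was drawn up with the comparison of the 2 groups known, and the separation of the groups by HS3ST2 and CHST2 was part of the reason for it. The differences of the 40 genes between the groups are therefore given as descriptions. Counts of calls from the fits over all genes are printed for them beside the share of all genes called, and support nothing.

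RNA came from H9, a long-established line of human embryonic stem cells, which had been directed toward nephron progenitor cells and were collected at the end of day 9. One group of 3 libraries came from complete medium with glutamine, and the other group of 3 from medium that lacked glutamine from the start of the differentiation. All 6 libraries thus share the cell line, the protocol and the day. The labels do not say whether replicates are separate cultures, so p-values measure only the spread between these libraries, which may be technical.

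Heparan sulfate chains are polymerized in the Golgi on a linker sugar attached to a core protein and are then modified in order: N-sulfation, epimerization of glucuronic acid, and sulfation at the 2-O, 6-O and, last and most rarely, 3-O positions. The pattern of sulfates sets which growth factors bind, and in the embryonic kidney heparan sulfate is known to be needed for ureteric bud branching and for signalling by FGF, WNT, BMP and GDNF. Glutamine supplies the nitrogen of glucosamine from its own amide group, and UDP-N-acetylglucosamine is one of the building blocks of the chain. The CHST enzymes place sulfates on chondroitin, dermatan and keratan sulfate and on other N-acetylglucosamine residues.

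The libraries held 78220507 to 84746566 counts, and levels are given as counts per 1000000 (CPM). Replicate 1 with glutamine stood apart from its group: its Pearson's r across genes, on log2 CPM, was 0.9758 and 0.9762 with the other 2 libraries with glutamine and 0.9908 to 0.9927 with those without. For the larger differences, the value without it is given too where it moves by over 1.5 times. Of 12 nephron progenitor markers all 12 passed the filter, with a summed level of 876 to 1659 CPM with glutamine and 1557 to 2076 CPM without; PAX8, WT1 and PAX2 made up most of the sum without glutamine, and the markers did not move together. SIX2 was at 6.57, 34.8 and 27.8 CPM with glutamine and 9.70, 7.80 and 7.27 without. OSR1, EYA1, CITED1 and MEOX1 were likewise lower without glutamine than in replicates 2 and 3 with it. PAX2, PAX8, LHX1, SALL1, WT1, GDNF and HOXD11 were higher without glutamine than in those 2 replicates. LHX1 was at 71.8, 4.51 and 4.66 CPM with glutamine and 137, 114 and 89.5 without. HOXD11 was nearest 0, at 0.00 to 0.54 CPM with glutamine and 3.22 to 6.05 without. Summed somite markers were at 129 to 219 CPM with and 110 to 167 CPM without glutamine. Of these, PAX3 was at 20.8, 115 and 118 CPM with and 22.4, 12.4 and 13.4 without. FOXC2 was higher without glutamine than in replicates 2 and 3 with it. Summed endothelial markers, nearly all KDR, were at 28.2 to 88.6 CPM with and 16.7 to 22.1 CPM without glutamine. TEK of these was at 1.33 to 2.33 CPM with and 1.88 to 3.06 without. Summed neural ectoderm markers, mostly DCX, were at 23.3 to 67.2 CPM with and 53.2 to 79.1 CPM without glutamine. PAX6 of these went the other way, at 3.33 to 4.19 CPM with and 2.65 to 3.12 without, and the other 4 stayed under 1 CPM. POU5F1, NANOG and TDGF1 of 6 pluripotency markers stayed under 1 CPM in every library. The summed level of the 6 was 140 to 203 CPM with and 233 to 295 CPM without glutamine, most of it DPPA4. ZFP42 was at 7.18 to 7.41 CPM with and 8.03 to 11.8 without. SOX2 was lower without glutamine than in replicates 2 and 3 with it, at 11.6, 22.6 and 20.0 CPM with and 17.1, 13.7 and 11.9 without. In nephron and endothelial markers replicate 1 with glutamine again lay toward the other group, and the part of cell makeup in the differences below was not tested.

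Without glutamine, 15 of the 40 genes were higher in all 3 libraries than in any library with glutamine and 1, SULF1, was lower in all 3. That is 37.5% higher and 2.5% lower, beside 17.3% higher and 16.9% lower over all 22613 genes, 34.2% in either direction. The median log2 fold change (without over with glutamine, fitted by edgeR) was 0.13 over the 40 genes, with quartiles of -0.01 and 0.82, and 0.00 over all genes, with quartiles of -0.24 and 0.26. In bulk RNA, fewer cells of a type and less RNA per cell cannot be told apart. At an adjusted p under 0.05 over all genes (edgeR's quasi-likelihood test with Benjamini-Hochberg adjustment) 0 of the 40 were called, where 0.00442% of all genes were, namely SLC7A11 alone. An unadjusted p under 0.05 was reached by 16 of the 40, where 29.7% of all genes reached it. DESeq2 called 12 of the 40, beside 14.0% of all genes: 11 were higher, beside 7.54%, and 1 was lower, beside 6.44%. With replicate 1 of the glutamine group left out, 19 of the 40 were called by edgeR, beside 41.3% of all genes: 16 were higher, beside 22.3%, and 3 were lower, beside 19.0%. Nothing is read from these counts, since the comparison itself chose the list.

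**Figure D1:**
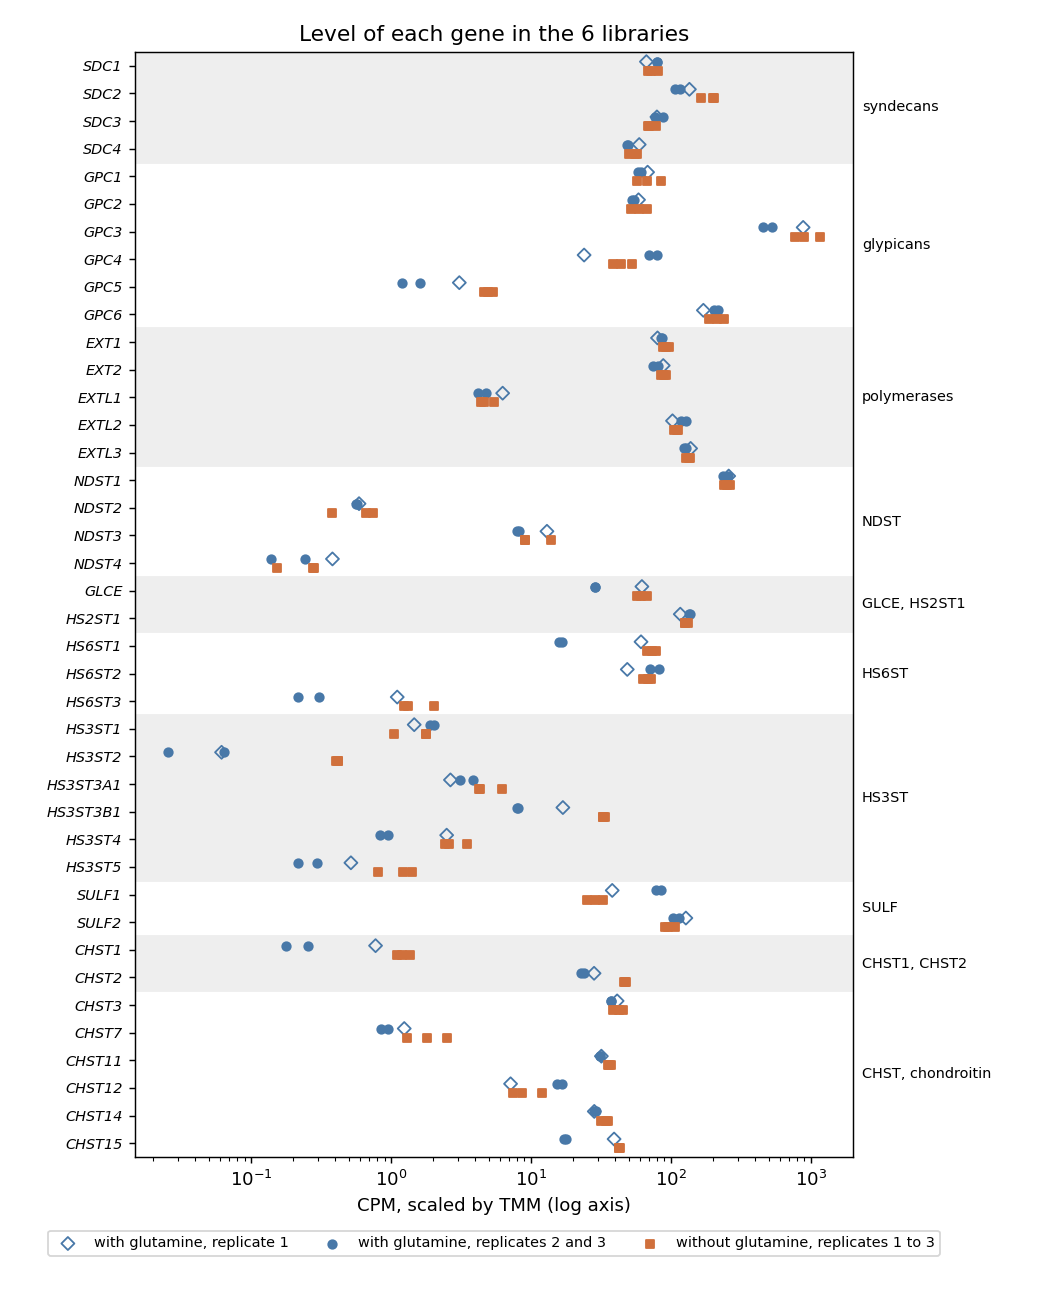
Level of each of the 40 genes in each library, in CPM on a log axis, with genes grouped by role. Blue symbols are libraries with glutamine, the open diamond being replicate 1, and orange squares are libraries without; HS3ST2 and HS3ST3B1 show the widest gaps between the groups, while replicate 1 with glutamine lies among or near the orange squares for HS6ST1, GLCE and CHST15.

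The 3-O-sulfotransferases add the last sulfate of the chain and make the rarest sites, such as that bound by antithrombin. HS3ST2 (ENSG00000122254, chr16:22814177-22916338 on the plus strand in GENCODE 29, GRCh38), known mainly from the brain, had 5, 5 and 2 counts in replicates 1, 2 and 3 with glutamine and 36, 32 and 33 without. The lowest library without glutamine lay far above the highest with it, and the group with glutamine was near the floor of detection. The gene passed the filter on low counts only through the group without glutamine. The scaled ratio of the summed counts, 101 against 12, was 8.24 (exact 95% interval 4.52 to 16.5, for counting error only), and the fitted log2 fold change was 3.0 (SE 0.31). The interval pools the libraries of each group. It takes no account of the choice of the gene from these same counts, so nothing is read from it. Even without glutamine the gene stayed at 0.416 ± 0.00639 CPM (SD, n = 3). With 32 to 36 counts a library, so small an SD does not measure the precision of that level.

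CHST2 (ENSG00000175040, chr3:143119331-143124014, plus strand), which sulfates N-acetylglucosamine at the 6-O position and is known for making selectin ligands, was far more abundant. Its level was 28.3, 22.9 and 23.9 CPM with glutamine and 47.1, 46.0 and 48.0 CPM without. The groups were separated by more than the spread within either, and replicate 1 with glutamine stayed with its own group. The log2 fold change was 0.91 (SE 0.10), and 1.01 (SE 0.07) without that replicate. HS3ST2 and CHST2 were the pair named when the list was made, so their separation is no finding. Among genes close to the line that separates the groups, EXT1 lay just inside, with at most 86 CPM with glutamine and at least 87.3 without. SDC3, SULF2 and HS3ST4 lay just outside: the lowest HS3ST4 level without glutamine was 2.42 CPM and the highest with it 2.5.

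The promoter windows of HS3ST2, CHST2 and the neighbouring pair HS3ST3A1 and HS3ST3B1 are shown because the first 2 are the genes that led to the list and the others are paralogs on 1 chromosome that both separated the groups. Each runs 5′ to 3′ from 250 bases before to 50 after the RefSeq start (GRCh38.p14): chr16:22813912-22814211 (plus strand), chr3:143119521-143119820 (plus), chr17:13601880-13602179 (minus) and chr17:14300831-14301130 (plus). Capitals mark matches on either strand to the GC box GGGCGG and to CCAAT, which overlap at 1 place in HS3ST3A1.
HS3ST2: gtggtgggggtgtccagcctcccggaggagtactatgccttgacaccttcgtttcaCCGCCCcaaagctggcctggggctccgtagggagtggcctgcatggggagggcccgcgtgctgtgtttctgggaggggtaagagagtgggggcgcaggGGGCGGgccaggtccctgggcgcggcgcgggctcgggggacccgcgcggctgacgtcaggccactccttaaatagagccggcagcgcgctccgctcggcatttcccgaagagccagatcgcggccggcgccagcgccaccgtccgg
CHST2: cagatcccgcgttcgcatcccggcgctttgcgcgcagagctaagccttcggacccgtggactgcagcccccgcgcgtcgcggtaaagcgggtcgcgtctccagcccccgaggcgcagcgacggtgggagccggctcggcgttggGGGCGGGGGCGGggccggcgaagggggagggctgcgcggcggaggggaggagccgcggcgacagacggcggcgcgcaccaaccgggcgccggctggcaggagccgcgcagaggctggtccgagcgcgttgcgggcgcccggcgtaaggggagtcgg
HS3ST3A1: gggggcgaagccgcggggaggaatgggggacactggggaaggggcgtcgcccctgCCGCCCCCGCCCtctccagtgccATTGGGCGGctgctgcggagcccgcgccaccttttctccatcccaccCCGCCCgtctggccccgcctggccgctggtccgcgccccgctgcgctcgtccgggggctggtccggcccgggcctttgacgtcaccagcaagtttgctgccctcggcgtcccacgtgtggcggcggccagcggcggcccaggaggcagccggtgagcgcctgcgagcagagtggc
HS3ST3B1: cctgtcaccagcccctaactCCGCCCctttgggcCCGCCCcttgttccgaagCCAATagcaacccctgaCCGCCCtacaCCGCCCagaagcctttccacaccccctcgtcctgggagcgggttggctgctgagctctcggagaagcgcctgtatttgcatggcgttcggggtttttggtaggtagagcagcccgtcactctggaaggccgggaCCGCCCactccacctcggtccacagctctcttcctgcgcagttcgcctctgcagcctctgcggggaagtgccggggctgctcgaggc

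All 4 windows were rich in G and C, at 71.0%, 77.7%, 76.3% and 65.3% in the order shown, against a median of 58.7% over 35116 promoters of the table and 68.0% over the 34 of the 40 genes with an entry. The GC box was found 2 times in HS3ST2, 2 in CHST2, 4 in HS3ST3A1 and 5 in HS3ST3B1, and in 27 of the 34 windows, where 45.0% of all promoters hold it. CCAAT was found in HS3ST3A1 and HS3ST3B1 and in 9 of the 34, where 34.6% of all promoters hold it. The letters TGATGNAA, the composite element that ATF4 binds in genes induced by amino acid shortage, were in 0 of the 34 windows and in 3.62% of all promoters, and TATAAA in 4 of the 34, none of them shown, and 11.5%. A match here is letters only and is not a measured binding site.

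HS3ST3B1, whose product makes a 3-O-sulfated site also used by herpes simplex virus, was the most abundant listed 3-O-sulfotransferase per exon length in every library. In replicate 2 with glutamine it led by little over HS3ST3A1 (41.8% and 40.8% of the sum of the listed genes). With the longest transcript as length, HS3ST3A1 led in that library, at 41.4% against 40.8%. HS3ST3B1 was at 16.9, 8.09 and 7.95 CPM with glutamine and at 32.6, 33.8 and 32.6 CPM without. The 3 libraries without glutamine agreed closely, whereas replicate 1 with glutamine was about midway on the log scale. The log2 fold change was 1.58 (SE 0.29), and 2.04 (SE 0.08) without that replicate. Its paralog HS3ST3A1 on the same chromosome was at 2.66, 3.87 and 3.12 CPM with glutamine and 6.17, 4.31 and 4.27 without, a log2 fold change of 0.62 (SE 0.21), and here replicate 1 with glutamine was the lowest library of all.

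HS3ST5, whose product can also make the antithrombin site, was at 0.518, 0.294 and 0.216 CPM with glutamine and at 0.814, 1.21 and 1.43 without, a log2 fold change of 1.73 (SE 0.36). HS3ST4, like HS3ST2 known from neurons, was at 2.5, 0.960 and 0.840 CPM with and 2.42, 3.47 and 2.60 without, so replicate 1 with glutamine lay inside the other group. Its log2 fold change of 0.97 (SE 0.40) became 1.65 (SE 0.22) without that replicate. HS3ST1, which makes the antithrombin site, overlapped between the groups at 1.04 to 2.02 CPM. Summed per exon length, the 6 genes reached a level, scaled to 1000000 per library, of 23.9, 16.0 and 13.7 with glutamine and 43.6, 41.9 and 39.1 without. HS3ST3B1 made up 49.4% ± 9.64 of that sum with glutamine and 64.9% ± 2.13 without, HS3ST3A1 32.4% ± 11.4 and 19.7% ± 3.90, and HS3ST2 0.479% ± 0.190 and 1.68% ± 0.0782 (SD, n = 3 each). Of these 6 genes, HS3ST2 had the widest gap on the log scale and was the smallest part of their sum in 5 libraries. HS3ST1 was smaller in replicate 3 without glutamine. HS3ST6, a further 3-O-sulfotransferase outside the list, is not in the sum. It was at 0.00 to 0.308 CPM with glutamine and 0.127 to 0.430 without.

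**Figure D2:**
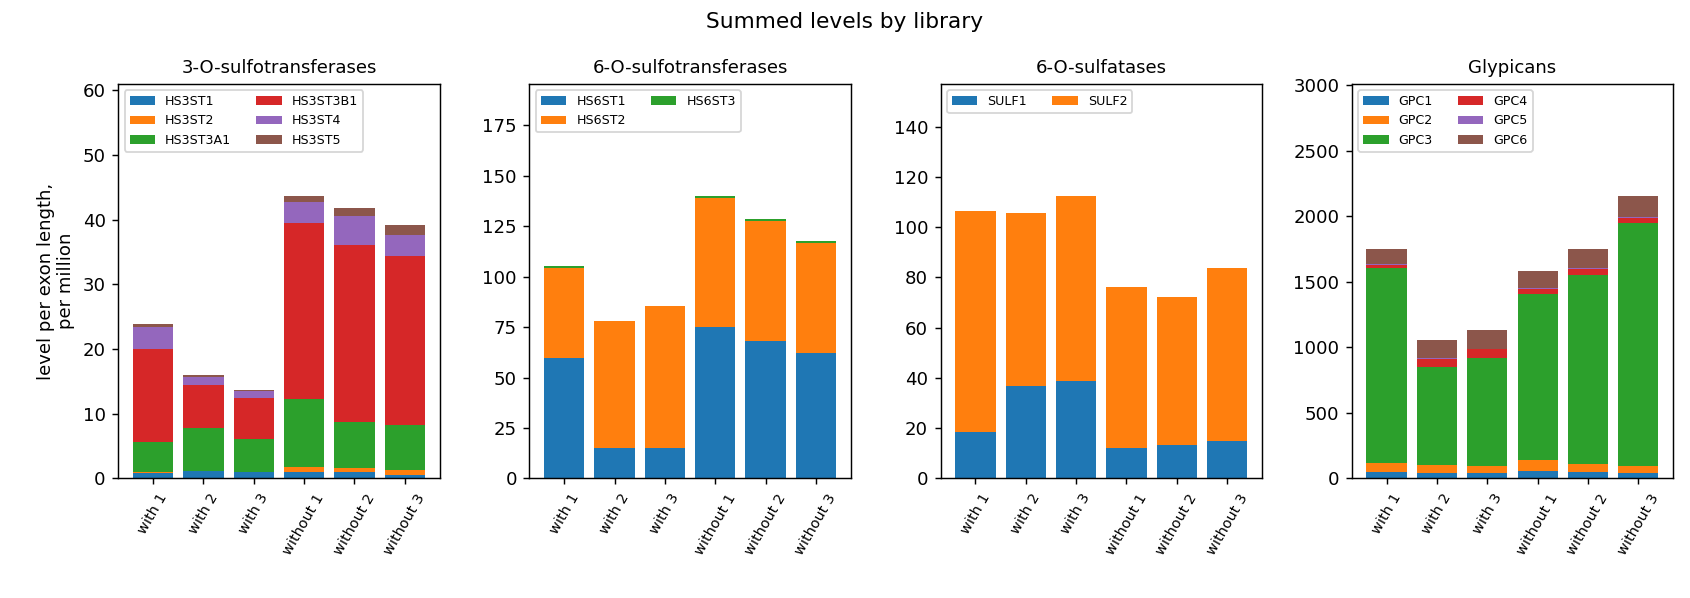
Stacked levels per exon length, scaled to a sum of 1000000 per library, of the listed 3-O-sulfotransferases, 6-O-sulfotransferases, 6-O-sulfatases and glypicans in each of the 6 libraries. Colours are genes. The summed 3-O-sulfotransferase level is 13.7 to 23.9 with glutamine and 39.1 to 43.6 without, and HS6ST1 is a thin band only in replicates 2 and 3 with glutamine.

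The 6-O-sulfotransferases differed among themselves. HS6ST1 was at 61.2, 16.0 and 16.6 CPM with glutamine and at 78.2, 73.3 and 67.8 without. Replicate 1 with glutamine sat just under the libraries without glutamine and far above the other members of its own group. The log2 fold change of 1.22 (SE 0.50) became 2.17 (SE 0.09) without it, so the size of this difference is set by that library. HS6ST3, at 1.11, 0.218 and 0.305 CPM with and 1.23, 1.33 and 2.02 without, had the same arrangement at a far lower level, and its log2 fold change of 1.47 (SE 0.53) became 2.54 (SE 0.34). HS6ST2, by contrast, was at 48.9, 71.0 and 82.5 CPM with and 71.7, 68.6 and 63.1 without, and its log2 fold change of 0.01 (SE 0.18) turned negative under upper quartile scaling (-0.03) and without replicate 1 with glutamine (-0.18). As a share of the family per exon length, HS6ST1 made up 56.9%, 19.4% and 17.7% in replicates 1, 2 and 3 with glutamine and 53.2% ± 0.334 without (SD, n = 3). HS6ST2 held most of the remainder, so the leading 6-O-sulfotransferase was HS6ST2 in replicates 2 and 3 with glutamine and HS6ST1 in the other 4 libraries.

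SULF1 and SULF2 remove 6-O-sulfates from finished chains outside the cell, and SULF1 was the 1 listed gene lower in all libraries without glutamine. It was at 38.1, 78.1 and 85.7 CPM with glutamine and 25.1, 28.8 and 32.6 without, a log2 fold change of -1.22 (SE 0.29), and -1.50 (SE 0.10) without replicate 1 with glutamine. That replicate was nearer the other group than its own. SULF2 was at 128, 103 and 115 CPM with and 95.7, 90.4 and 107 without; the groups overlapped by 1 library, and the log2 fold change was -0.24 (SE 0.10). Per exon length SULF2 was the main sulfatase transcript everywhere, at 71.1% ± 9.99 with glutamine and 82.7% ± 1.45 without (SD, n = 3).

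Among the listed enzymes that act before 6-O-sulfation, the groups did not overlap for EXT1 alone, and the difference of GLCE grew without replicate 1 with glutamine. NDST1, the main N-deacetylase/N-sulfotransferase at 94.4% ± 1.31 of its family per exon length with glutamine, was at 259, 238 and 256 CPM with and 253, 240 and 267 without, a log2 fold change of 0.01 (SE 0.07), which turned negative under upper quartile scaling. NDST3 (7.90 to 14.0 CPM) and NDST4 (0.140 to 0.382 CPM) overlapped between groups. NDST2 was at 0.382 to 0.740 CPM, but 82.9% of its exonic bases also belong to the readthrough gene AC022400.6, which itself had 1 to 13 counts. How reads that fit both genes were counted is not given in the sources used here, so the low level of NDST2 is uncertain.

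HS2ST1, the 2-O-sulfotransferase whose loss in mice prevents kidney formation, was at 117, 135 and 136 CPM with glutamine and 127, 127 and 132 without, a log2 fold change of -0.01 (SE 0.08). GLCE, the epimerase that turns glucuronic into iduronic acid, was at 62.1, 28.7 and 28.6 CPM with and 67.8, 57.1 and 61.4 without. Replicate 1 with glutamine lay inside the other group for GLCE, and the log2 fold change of 0.64 (SE 0.30) became 1.12 (SE 0.09) without it. The polymerases EXT1 and EXT2 form the complex that extends the chain. EXT1 was at 80.3, 84.4 and 86 CPM with and 87.3, 92.6 and 96.7 without, a log2 fold change of 0.14 (SE 0.07), which is a small shift although the groups do not overlap. EXTL2, the most abundant of the 5 per exon length, was at 103, 118 and 128 CPM with and 105, 111 and 113 without. EXT2, EXTL1, EXTL2 and EXTL3, the last of which starts the chain, overlapped between groups with log2 fold changes of 0.13, -0.08, -0.08 and 0.03. That of EXTL3 turned negative under upper quartile scaling, and without replicate 1 with glutamine those of EXT2, EXTL1, EXTL2 and EXTL3 were 0.20, 0.11, -0.15 and 0.08.

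Syndecans are transmembrane core proteins and glypicans are tethered to the membrane by a lipid anchor. SDC2 was at 136, 107 and 117 CPM with glutamine and 165, 204 and 201 without, a log2 fold change of 0.67 (SE 0.12), with no overlap. It was the leading syndecan per exon length, at 33.3% ± 2.61 of the 4 with and 44.7% ± 4.54 without (SD, n = 3). SDC1, SDC3 and SDC4 overlapped between groups, with log2 fold changes of -0.03, -0.18 and 0.05.

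GPC3, whose loss causes the overgrowth syndrome of Simpson, Golabi and Behmel with enlarged and malformed kidneys, was the most abundant transcript of all 40 genes per exon length. It was at 882, 457 and 524 CPM with glutamine and 768, 900 and 1168 without. Replicate 1 with glutamine lay among the libraries without, and the log2 fold change was 0.61 (SE 0.26) with it and 0.95 (SE 0.15) without it. GPC4, 120 kb away on the X chromosome with 0 protein-coding genes between, was at 24.0, 69.3 and 79.2 CPM with and 38.7, 52.8 and 44.1 without, a log2 fold change of -0.35 (SE 0.39), and -0.71 (SE 0.12) without replicate 1. That replicate was the lowest of the 6 libraries for GPC4.

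GPC5 was at 3.08, 1.63 and 1.20 CPM with glutamine and 5.35, 4.62 and 4.91 without, a log2 fold change of 1.33 (SE 0.31), with no overlap. GPC6, 353 kb away on chromosome 13 on the same strand, was at 171, 203 and 218 CPM with and 189, 215 and 238 without, a log2 fold change of 0.12 (SE 0.12). Each pair of neighbouring glypican genes thus held members with unlike differences: 0.61 and -0.35 for GPC3 and GPC4, 1.33 and 0.12 for GPC5 and GPC6. GPC1 and GPC2 overlapped between groups at 57.2 to 84.7 and 51.9 to 68.0 CPM. HS3ST3A1 and HS3ST3B1 lie 699 kb apart on opposite strands with 2 protein-coding genes between them, and both were higher without glutamine, by 0.62 and 1.58.

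Of the other CHST enzymes, CHST1, which sulfates galactose in keratan sulfate, was at 0.776, 0.179 and 0.255 CPM with glutamine and 1.21, 1.38 and 1.11 without. Its log2 fold change was 1.59 (SE 0.44), and 2.5 (SE 0.27) without replicate 1 with glutamine. CHST15, which adds a second sulfate to chondroitin, was at 39.3, 17.7 and 17.4 CPM with and 42.7, 43.1 and 42.8 without. Replicate 1 with glutamine again sat just under the other group, and the log2 fold change of 0.79 (SE 0.31) became 1.29 (SE 0.07) without it.

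The 4-O-sulfotransferases of chondroitin and dermatan sulfate showed small or opposite differences. CHST11 was at 31.9, 31.4 and 31.1 CPM with glutamine and 35.5, 36.0 and 37.1 without, a log2 fold change of 0.20 (SE 0.07). CHST14, the dermatan enzyme and the most abundant of the 6 chondroitin and dermatan members per exon length (CHST15 led in replicate 1 with glutamine when the longest transcript was the length), was at 28.4, 28.1 and 29.3 CPM with and 35.6, 34.7 and 31.9 without, a log2 fold change of 0.25 (SE 0.08). In both genes all 3 libraries with glutamine lay close together, replicate 1 included. CHST12 was at 7.16, 16.6 and 15.4 CPM with and 12.0, 8.61 and 7.47 without, with replicate 1 with glutamine the lowest of the 6 libraries and a log2 fold change of -0.48 (SE 0.33), or -0.77 (SE 0.17) without that replicate. Of the 6-O enzymes, CHST7 was at 1.24, 0.948 and 0.853 CPM with and 2.53, 1.82 and 1.30 without, a log2 fold change of 0.90 (SE 0.29), and CHST3 overlapped at 37.5 to 45.4 CPM.

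**Figure D3:**
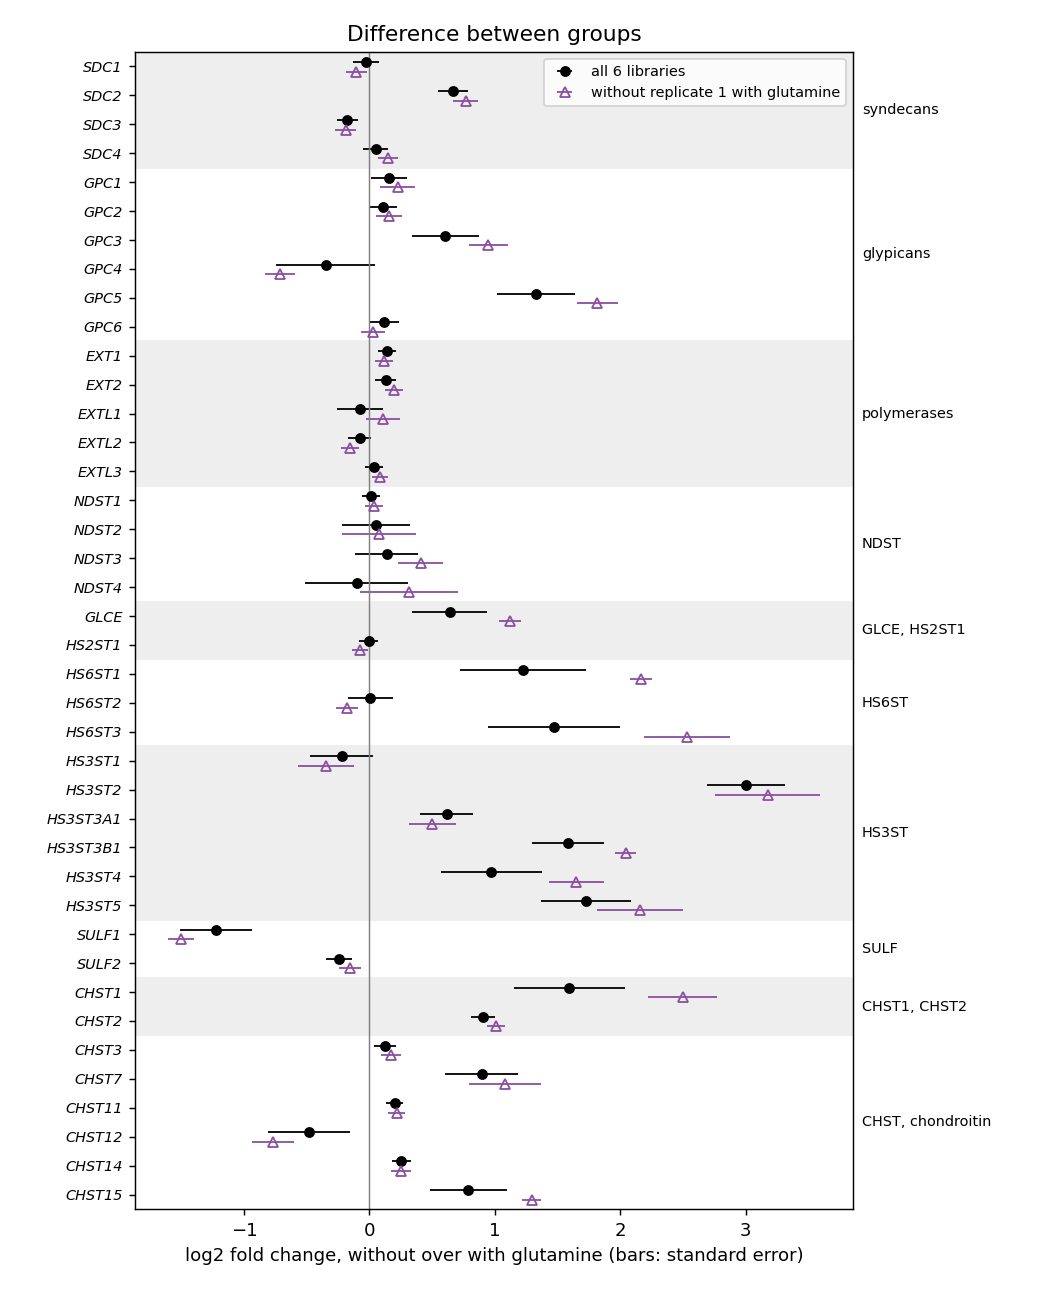
Log2 fold change without over with glutamine for each of the 40 genes, with its standard error, from all 6 libraries (filled circles) and without replicate 1 with glutamine (open triangles). HS3ST2 reaches furthest to the right at 3.0, followed by HS3ST5, CHST1 and HS3ST3B1, SULF1 furthest to the left at -1.22, and the triangles lie farther from 0 than the circles for HS6ST1, HS6ST3, HS3ST4, CHST1, CHST15 and GLCE.

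Replicate 1 with glutamine was placed between the groups gene by gene. On a log2 CPM scale running from 0, the mean of the other 2 libraries with glutamine, to 1, the mean of the libraries without, a position was computed for the 13 genes in which those means differed by at least 1. HS3ST2 was at 0.18 and CHST2 at 0.27. Both were chosen as genes that separate the groups, so these low values are not read further. Of the others, CHST7, HS3ST5 and HS3ST3B1 lay at 0.46, 0.48 and 0.53, and GPC5, SULF1 and CHST1 at 0.63, 0.73 and 0.74. HS6ST3, HS6ST1, HS3ST4, CHST15 and GLCE lay at 0.83 to 1.0. The median over the 13 genes was 0.73, and it was 0.79 over the 3285 genes of the table past the same difference, with quartiles of 0.56 and 0.96. The position of HS3ST2 rests on 5 counts in that library.

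**Figure D4:**
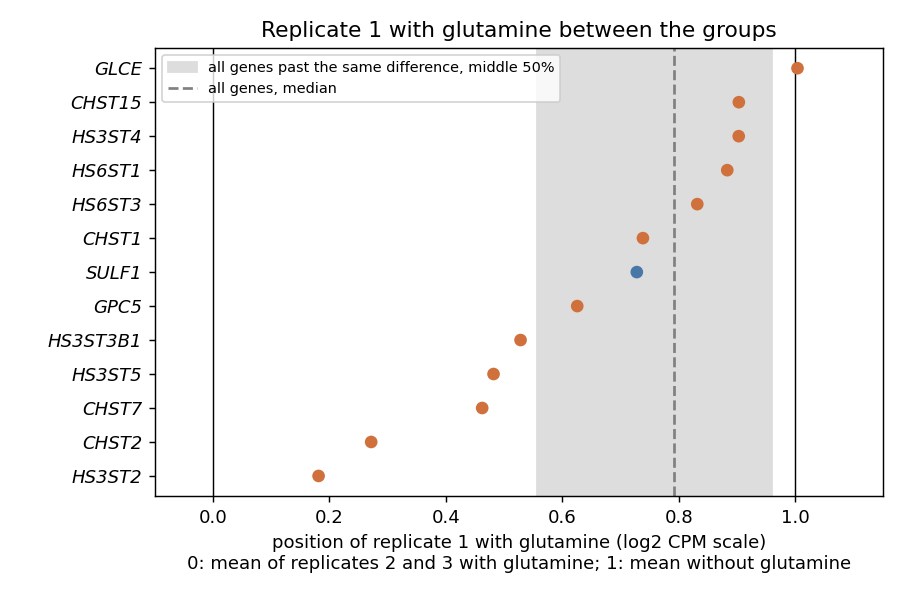
Position of replicate 1 with glutamine between the mean of the other 2 libraries of its group (0) and the mean of the libraries without glutamine (1), on the log2 CPM scale, for the 13 listed genes whose means differ by at least 1. Orange points are higher and the blue point, SULF1, lower without glutamine; the grey band holds the middle 50% of the 3285 genes past the same difference, and the other 11 genes run from CHST7 at 0.46 to GLCE at 1.0. HS3ST2 and CHST2, at the low end, were chosen as genes that separate the groups, so their positions are not read further.

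Near-identical sequence limits a few of these values. Of the 50-base stretches in the longest transcript of each gene, a length equal to 1 read, 21.2% of those of HS3ST3A1 also occur in HS3ST3B1, and 10.4% of those of HS3ST3B1 occur in other genes, chiefly HS3ST3A1. For HS6ST1 the share was 18%, mainly with the pseudogene HS6ST1P1, which had 2 to 27 counts. HS2ST1 shared 10.1% with the overlapping gene AC093155.3, which had at most 2 counts, and CHST2 3.66% with AC018450.1, at 23 to 40 counts. HS3ST2 shared none. The handling of such reads is not given in the sources used here.

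The rest of the pathway was taken from 71 further genes, listed by function, of which 69 passed the filter. With edgeR's quasi-likelihood test 0 of 69 had a Benjamini-Hochberg adjusted p under 0.05 over all genes, against 0.00442% of all genes, and 26 had an unadjusted p under 0.05, 16 higher and 10 lower without glutamine, beside 29.7% of all genes. DESeq2 called 9 of the 68 it adjusted, 6 higher and 3 lower, where it called 14.0% of all genes. With replicate 1 of the glutamine group left out, 40 of 69 were called by edgeR, 24 higher and 16 lower, beside 41.3% of all genes. The groups did not overlap for 19 higher and 7 lower genes, 27.5% and 10.1% of the 69, beside 17.3% and 16.9% of all genes, and the median log2 fold change was 0.08.

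By step, the groups were separated upward for 4 of 7 enzymes of the linker sugar, 2 of 8 genes of sulfate donor supply, 4 of 12 of sugar nucleotide supply, 3 of 9 of chondroitin chain synthesis and 3 of 12 of breakdown. Downward they were separated for 3 genes of sugar nucleotide supply and 1 of chondroitin synthesis. Of 14 further core proteins 2 were separated upward and 2 downward, and of 7 other sulfotransferases 1 each way. Beside 17.3% upward and 16.9% downward over all genes, these are small counts, and no step is read as set apart. XYLT1, which adds the linker's xylose to the core protein, was at 32.1, 12.5 and 14.0 CPM with glutamine and 38.7, 39.3 and 47.7 without. It differed by 1.10 on the log2 scale (SE 0.35), with an adjusted p of 0.101 in edgeR and 0.00484 in DESeq2. Without replicate 1 with glutamine the difference was 1.66 (SE 0.11), with an adjusted p of 4e-06 in edgeR, in a fit that called 41.3% of all genes. PAPSS2, which makes the sulfate donor PAPS, was at 3.34, 2.60 and 3.53 CPM with and 5.44, 6.75 and 5.62 without, and replicate 1 lay inside its own group. The difference was 0.91 on the log2 scale (SE 0.16), with an adjusted p of 0.0679 in edgeR and 7.1e-05 in DESeq2.

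Secreted and part-time core proteins had differences in both directions. AGRN, the basement membrane proteoglycan agrin, was at 155, 90.7 and 85.8 CPM with glutamine and 314, 224 and 169 without, a difference of 1.09 on the log2 scale (SE 0.29), with an adjusted p of 0.0819 in edgeR and 0.0011 in DESeq2. DCN, decorin, was at 5.48, 1.02 and 1.17 CPM with and 7.96, 6.98 and 9.03 without. The difference of 1.64 on the log2 scale (SE 0.58) had an adjusted p of 0.122 in edgeR and 0.134 in DESeq2, and it became 2.87 (SE 0.17) without replicate 1 with glutamine. TGFBR3, the co-receptor betaglycan, was at 16.8, 20.1 and 20.2 CPM with and 12.9, 11.6 and 12.0 without, a difference of -0.64 on the log2 scale (SE 0.11), with an adjusted p of 0.0679 in edgeR and 0.00017 in DESeq2.

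GALNS, a lysosomal sulfatase, was at 9.07, 4.39 and 4.65 CPM with glutamine and 10.0, 10.7 and 10.4 without, a difference of 0.78 on the log2 scale (SE 0.27), or 1.20 (SE 0.10) without replicate 1 with glutamine. Among the genes with lower levels without glutamine, UST, the uronyl 2-O-sulfotransferase, had a log2 fold change of -0.66 (SE 0.21), the nucleotide sugar transporters SLC35D2 and SLC35A3 had -0.66 (SE 0.15) and -0.49 (SE 0.17), and CHST4, at under 1 CPM, had -0.89 (SE 0.27). In edgeR the adjusted p of these 5 genes ran from 0.0706 to 0.121 and none was called, whereas DESeq2 called GALNS, UST and SLC35D2. Without replicate 1 with glutamine edgeR called all 5, beside 41.3% of all genes, with adjusted p from 1.6e-05 for GALNS to 0.00412 for CHST4. All the other pathway genes named were picked by fold change and lack of overlap in these same data. Their p-values are therefore descriptions and support nothing.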

How the data were processed

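mRNA was sequenced in 6 libraries (stranded kit, single 50-base reads, per the labels' protocols), 3 per group, with groups and replicate numbers from the sample titles. The authors deposited raw counts per Ensembl gene and a second table of normalized counts, here treated as a signal: each value is the count divided by 1 factor per library (0.977 to 1.08). The submitters' processing notes name cutadapt, Trim Galore, FastQC, STAR 2.5.2b, DESeq2 and GRCh38; the counting program, annotation and strand setting are not given in the sources used here. Column headings name days 0 and 9, whereas all labels say day 9; columns were assigned by the headings that the sample descriptions state, and every direction rests on that.

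Symbols, positions and lengths came from GENCODE 29 (56531 of 60107 IDs matched; the others held 0.148% of counts). The test on counts was edgeR's (version 4.0.16, under R 4.3.3; filterByExpr, TMM, glmQLFit with legacy = FALSE and robust = FALSE, Benjamini-Hochberg over 22613 genes, threshold 0.05); the script was tested on simulated data. The SE is the log2 fold change over the square root of F. CPM use TMM-scaled library sizes. Levels per exon length are counts over the union of exons, scaled to 1000000 per library. Alternatives used DESeq2 1.42.0, limma 3.58.1, other scalings, no filter, a replicate block, and each library left out. The members, lists and tests were chosen with earlier results of these data known. Named were all 40 genes, with values per library for HS3ST2, CHST2, genes without overlap at 1 CPM or more and the most abundant of each role, and, of the other pathway genes, the 5 highest and 5 lowest fold changes without overlap at 50 counts or more. GPC4, GPC6, GLCE, HS3ST4, CHST12, HS6ST2, SULF2 and markers were added after their values were seen. Promoter sequences are from RefSeq; the motifs were chosen after the counts were seen.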

Additional observations from a re-analysis of the deposited data

How the results depend on the processing

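Over all genes, 1 gene was called with edgeR; the count was 0 under upper quartile scaling, with the legacy setting and with the replicate block, 2 when all genes were tested unfiltered, 2 by limma-trend from the normalized counts, and 3041 with DESeq2. Leaving out 1 library gave from 0 to 9573 calls, the highest without replicate 1 with glutamine, which also gave the highest counts below. Upper quartile scaling moved the median of all genes to -0.04 and the split at an unadjusted p under 0.05 from 3334 higher and 3384 lower to 2628 and 4295, or from 15 and 1 to 12 and 3 of the 40 listed genes. Of the 40 listed genes 0 were called. DESeq2 called 12, beside 14.0% of all genes, and leaving out 1 library gave from 0 to 19, the last beside 41.3%. Of the other pathway genes 0 were called. DESeq2 called 9, and leaving out 1 library gave from 0 to 40, beside the same shares of all genes. Groups did not overlap for 16 of the 40 listed genes, beside 34.2% of all genes. The count was 17 under upper quartile scaling, and 16 to 28 with 1 library left out, where fewer libraries make overlap less likely. For these alternatives the share of all genes was not computed, so nothing is read from their counts. The cause of the difference between edgeR and DESeq2 was not tested.

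Same-numbered samples did not deviate together (correlations -0.021, 0 and 0.028). Since replicate 1 with glutamine stood apart from its group, this check cannot exclude pairing. The replicate block called 0 listed genes. The SD between replicates includes replicate 1 with glutamine and cannot measure the effect of leaving it out, which moved HS6ST1 from 1.22 to 2.17, HS6ST3 from 1.47 to 2.54 and GLCE from 0.64 to 1.12. Under upper quartile scaling CHST11 moved to 0.16 from 0.20. Among the fold changes of the listed genes there were 22 changes of sign, in 11 genes whose log2 fold changes were at most 0.16 in size. With the longest transcript as length, 20 of 40 family shares without glutamine moved by more than 1 SD, and 36 did when not divided by length. HS3ST2, at 2 to 5 counts a library with glutamine and 32 to 36 without, is limited by depth.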
